A study of Homo sapiens with 5 samples.

Results

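The SPARC family comprises secreted glycoproteins that share a follistatin-like module and an extracellular calcium-binding module with EF-hands. Its 8 members considered here are SPARC itself, SPARCL1, SMOC1, SMOC2, SPOCK1, SPOCK2, SPOCK3 and FSTL1. All probe sets that the platform annotation assigns to these genes and to no other gene were taken, which gave 17 of the 54675 probe sets on the array, for 8 of the 19775 genes that these name. The family was chosen by the MAS5 signals of SPARC, which stood out in the comparison of PRL-1 with vector on these same arrays. The differences of the members between these groups are therefore given as a description, with an interval and no p-value, and they are not independent evidence of a change.

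HEK293 cells (an established line of human embryonic kidney origin) stably transfected with pcDNA4-PRL-1 (n = 2 arrays) or with empty pcDNA4 vector (n = 3 arrays) were grown in the same serum-containing medium, and total RNA was hybridized to HG-U133 Plus 2.0 arrays. PTP4A1 encodes PRL-1, a prenylated protein tyrosine phosphatase. The authors left out 1 further PRL-1 array after qRT-PCR showed no raised PRL-1 in that RNA. The methods describe a single stable line for each construct, so the transgene cannot be told apart from whatever else distinguishes the lines, and the spread between arrays is that between cultures of a line. None of the 4 measurable PTP4A1 probe sets was called on these arrays (log2 difference 0.06 to 0.15, limma adjusted p from 0.737 to 0.892), and whether these probe sets lie within the transgene is not known. The arrays thus settle nothing about the labels, and groups are named by them below, as arrays labelled PRL-1 and vector arrays. Vector replicate 3 stood apart, with a correlation of log2 signals of at most 0.947 with any other array. Of 9 markers of the HEK293 background on the array, 7 had a signal of at least 100 on every array, among them NEFL, a neurofilament subunit, and PAX2, a kidney developmental factor, while NEFM lay under 100 on all arrays.

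As background, SPARC (osteonectin, BM-40) binds collagens and calcium in the matrix, modulates the contact of cells with their surroundings and restrains several growth factors. SPARCL1 (hevin) is its closest relative and is best known from brain, where in mouse it is released by astrocytes and promotes synapse formation. The SMOC proteins occur in basement membranes and act on BMP signalling, the SPOCK proteins (testicans) are proteoglycans that act on extracellular proteases, and FSTL1 is a follistatin-like glycoprotein that binds BMP ligands.

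The promoters of 3 members are shown because these genes covered the range of levels found, SPARC with a large difference between the groups, SPARCL1 near background and FSTL1 bright on every array. Each run gives the 250 bases before the start site 5′ to 3′ in the sense of the RNA (RefSeq, GRCh38.p14), at chr5:151686916-151687165 on the minus strand for SPARC, at chr4:87529377-87529626 on the minus strand for SPARCL1 and at chr3:120450993-120451242 on the minus strand for FSTL1. Capitals mark every GGAGG and its reverse complement CCTCC, the purine-rich element for which the SPARC promoter is known.
SPARC: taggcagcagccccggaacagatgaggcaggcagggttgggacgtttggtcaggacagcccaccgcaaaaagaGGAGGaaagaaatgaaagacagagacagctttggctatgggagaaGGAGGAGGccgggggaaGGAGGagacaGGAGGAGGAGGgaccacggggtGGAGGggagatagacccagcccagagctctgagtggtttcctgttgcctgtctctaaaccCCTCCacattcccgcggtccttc
SPARCL1: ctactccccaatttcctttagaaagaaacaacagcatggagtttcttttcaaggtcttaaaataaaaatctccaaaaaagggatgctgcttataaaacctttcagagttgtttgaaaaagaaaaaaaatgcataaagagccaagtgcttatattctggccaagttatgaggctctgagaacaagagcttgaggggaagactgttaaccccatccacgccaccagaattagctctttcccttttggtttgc
FSTL1: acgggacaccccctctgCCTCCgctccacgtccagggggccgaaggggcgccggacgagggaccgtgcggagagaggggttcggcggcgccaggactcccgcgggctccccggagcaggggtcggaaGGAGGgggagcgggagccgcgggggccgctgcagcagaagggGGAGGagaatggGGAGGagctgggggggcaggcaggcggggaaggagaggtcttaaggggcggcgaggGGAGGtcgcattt
Counting overlaps, the SPARC promoter held 9 such matches, and 1.1% of the 35116 promoters in the table held as many or more. FSTL1 held 5 matches, a number reached by 8.85% of promoters, and SPARCL1 held 0, where 72.4% of promoters held at least 1. The SPARCL1 window contained a match to TATAAA or its reverse complement TTTATA, as did 10.7% of all promoters, and SPARC and FSTL1 contained none. CG dinucleotides numbered 7 in SPARC, 1 in SPARCL1 and 24 in FSTL1, against a median of 11. Among the other members, SMOC2 held 7 GGAGG matches, SMOC1 held 1, the SPOCK2 windows held 3 and 0 and the SPOCK3 windows held 7, 5 and 2. In all, 10 windows of 7 members were examined, and SPOCK1 was not matched. The arrays do not bear on which sequence acts in these cells, and the matches are a description of the letters only.

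Of the members, SPARC had by far the widest gap between the groups. Probe set 200665_s_at gave 614 and 649 on the arrays labelled PRL-1, against 40.3, 42.9 and 12.9 on the vector arrays. Both arrays labelled PRL-1 lay well above a signal of 100 and all vector arrays lay below it, so the groups did not overlap. A signal of 100 is used throughout as the background level, since no array had more than 3 of the 27 bacterial controls at or above it. It is a working limit under which signals are not relied on, and a signal under it can still exceed most controls. The controls had a median signal of 15 and a highest signal of 202.8, so a single signal between 100 and 202.8 is not clear of their range. The arrays labelled PRL-1 averaged 632 ± 24.5 (SD, n = 2) and the vector arrays 32.04 ± 16.62 (SD, n = 3). Against a floor of 100 for the vector arrays, the arrays labelled PRL-1 had at least 6.31-fold more SPARC signal. The log2 difference of the MAS5 signals as deposited was 4.49 ± 0.59 (SE), with a 95% interval of 3.14 to 5.84, but its size rests on vector signals that lie under the background level. Without vector replicate 3, which had the lowest of these, it was 3.92.

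The other SPARC probe set, 212667_at, gave 94.6 and 90.1 on the arrays labelled PRL-1, against 20.3, 43.0 and 7.44 on the vector arrays. It was also higher on both arrays labelled PRL-1 than on any vector array. However, all 5 signals lay under 100, so this probe set was not tested and no fold is given for it. The probe sets of SPARC thus had the same order of groups and differed in brightness, and levels of different probe sets cannot be compared with each other.

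**Figure D1:**
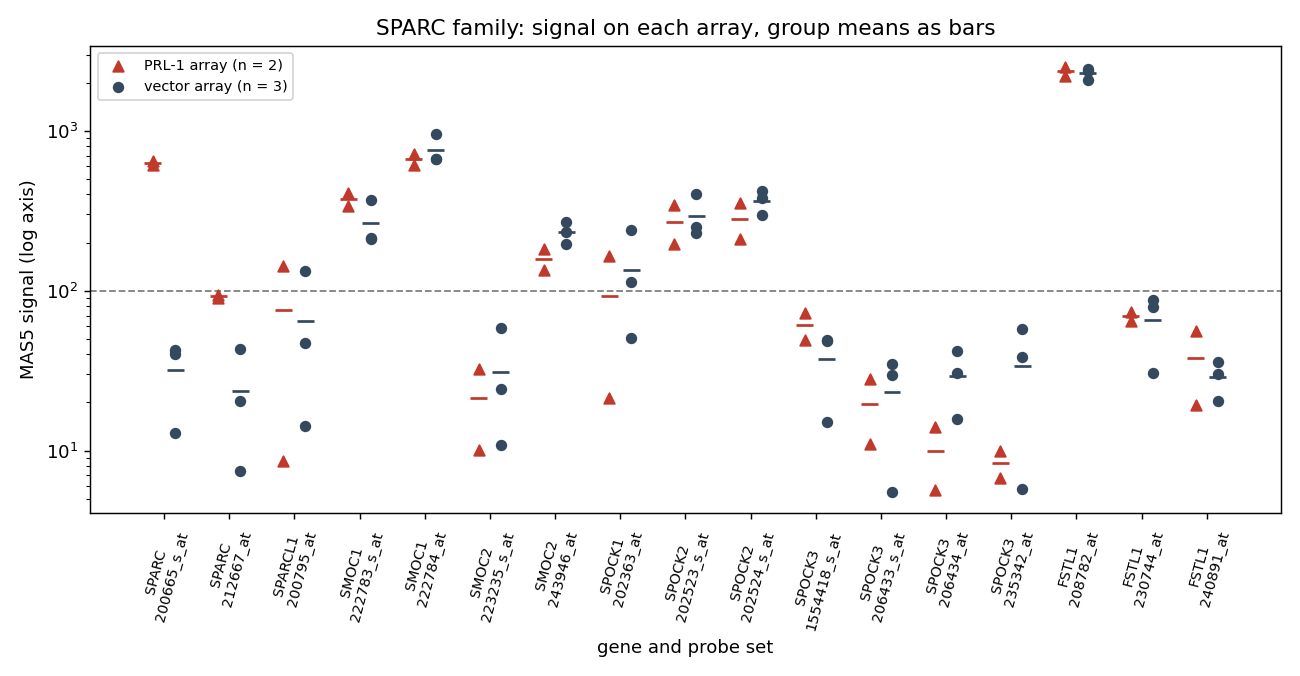
MAS5 signal (log axis) of the 17 probe sets of the SPARC family on each array, with the 2 arrays labelled PRL-1 as triangles left of the 3 vector arrays as circles, horizontal strokes for the group means and the background level of 100 drawn dashed. SPARC 200665_s_at is at 614 and 649 on the arrays labelled PRL-1 and under the dashed line on all vector arrays, and the groups overlap for most other probe sets.

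SPARCL1, the nearest relative of SPARC, was at or near the background level in both groups. Its single probe set gave 8.65 and 143 on the arrays labelled PRL-1, against 14.3, 47.3 and 133 on the vector arrays. Each group held an array above 100 and an array far under it, and the ranges overlapped over almost their whole length. The log2 difference was -0.35 ± 1.57 (SE), with a 95% interval of -3.93 to 3.22, which is too wide to set a useful limit on a change of SPARCL1 in either direction. It was 1.67 without PRL-1 replicate 1, -2.38 without PRL-1 replicate 2 and 0.43 without vector replicate 3, so its sign rested on single arrays.

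The tested probe sets of the SMOC genes had narrower intervals. SMOC1, a regulator of BMP signalling in development of the eye and limb, gave 715 and 612 on the arrays labelled PRL-1 through probe set 222784_at, against 668, 666 and 957 on the vector arrays. The groups overlapped and the log2 difference was -0.19 ± 0.19 (SE), with a 95% interval of -0.62 to 0.25. Leaving out vector replicate 3 brought it to -0.01. Its other probe set, 222783_s_at, gave 337 and 407 on the arrays labelled PRL-1, against 214, 211 and 368 on the vector arrays. Here both arrays labelled PRL-1 lay above vector replicates 1 and 2 but not clear of vector replicate 3, and the log2 difference was 0.54 ± 0.27 (SE), with a 95% interval of -0.09 to 1.16. The probe sets of SMOC1 therefore differed in the sign of the difference, and both intervals included 0.

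SMOC2, a related basement membrane protein, gave 135 and 182 on the arrays labelled PRL-1 through probe set 243946_at, against 234, 195 and 269 on the vector arrays. All vector arrays lay above both arrays labelled PRL-1. The signals of 135, 182 and 195 were not clear of the range of the bacterial controls, which reached 202.8. The arrays labelled PRL-1 averaged 159 ± 33.6 (SD, n = 2) and the vector arrays 233 ± 37.2 (SD, n = 3), and the log2 difference was -0.56 ± 0.27 (SE), with a 95% interval of -1.16 to 0.05. Leaving out PRL-1 replicate 1 brought it to -0.34. Probe set 223235_s_at of SMOC2 was under 100 on all arrays, at 10.1 to 32.5 on the arrays labelled PRL-1 and 10.9 to 58.6 on the vector arrays.

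Among the testicans, SPOCK2 was the member measured on every array. Probe set 202523_s_at gave 195 and 344 on the arrays labelled PRL-1, against 231, 251 and 405 on the vector arrays. Probe set 202524_s_at gave 209 and 356 on the arrays labelled PRL-1, against 296, 381 and 418 on the vector arrays. In both, PRL-1 replicate 1 was the lowest and vector replicate 3 the highest of all arrays, and the groups overlapped. The log2 differences were -0.14 ± 0.32 (SE) and -0.40 ± 0.26 (SE), with 95% intervals of -0.88 to 0.59 and -1.004 to 0.196. Both depended on the array labelled PRL-1 that was kept. The difference of 202523_s_at was 0.27 with PRL-1 replicate 2 alone, -0.56 with PRL-1 replicate 1 alone and 0.11 when vector replicate 3 was left out, and that of 202524_s_at was -0.02 with PRL-1 replicate 2 alone and -0.79 with PRL-1 replicate 1 alone.

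SPOCK1 gave 21.4 and 164 on the arrays labelled PRL-1, against 50.6, 113 and 241 on the vector arrays. Its pattern over the arrays resembled that of SPARCL1, with the lowest signal on PRL-1 replicate 1 and high signals on PRL-1 replicate 2 and vector replicate 3. This order is not particular to these genes. The median signal over all probe sets was 124.2 on PRL-1 replicate 1, 143.4 on PRL-1 replicate 2 and 165.9 on vector replicate 3. Vector replicates 1 and 2 lay between, at 135.4 and 138.2. The log2 difference of SPOCK1 was -0.91 ± 0.94 (SE), with a 95% interval of -3.04 to 1.22. It turned to 0.56 without PRL-1 replicate 1, and was -2.38 without PRL-1 replicate 2 and -0.35 without vector replicate 3, so that single arrays set its direction and size. SPOCK3 could not be measured, since its 4 probe sets were under 100 on all arrays, with signals from 5.71 to 72.6 on the arrays labelled PRL-1 and from 5.51 to 57.5 on the vector arrays.

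FSTL1 was bright on every array and was the member measured with the narrowest interval. Probe set 208782_at gave 2203 and 2502 on the arrays labelled PRL-1, against 2067, 2363 and 2437 on the vector arrays. The arrays of both groups were interleaved. The log2 difference was 0.04 ± 0.12 (SE), and its 95% interval of -0.24 to 0.32 corresponds to 0.845-fold to 1.25-fold, so that a doubling of FSTL1 lay outside it. The other 2 FSTL1 probe sets were under 100 on all arrays.

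**Figure D2:**
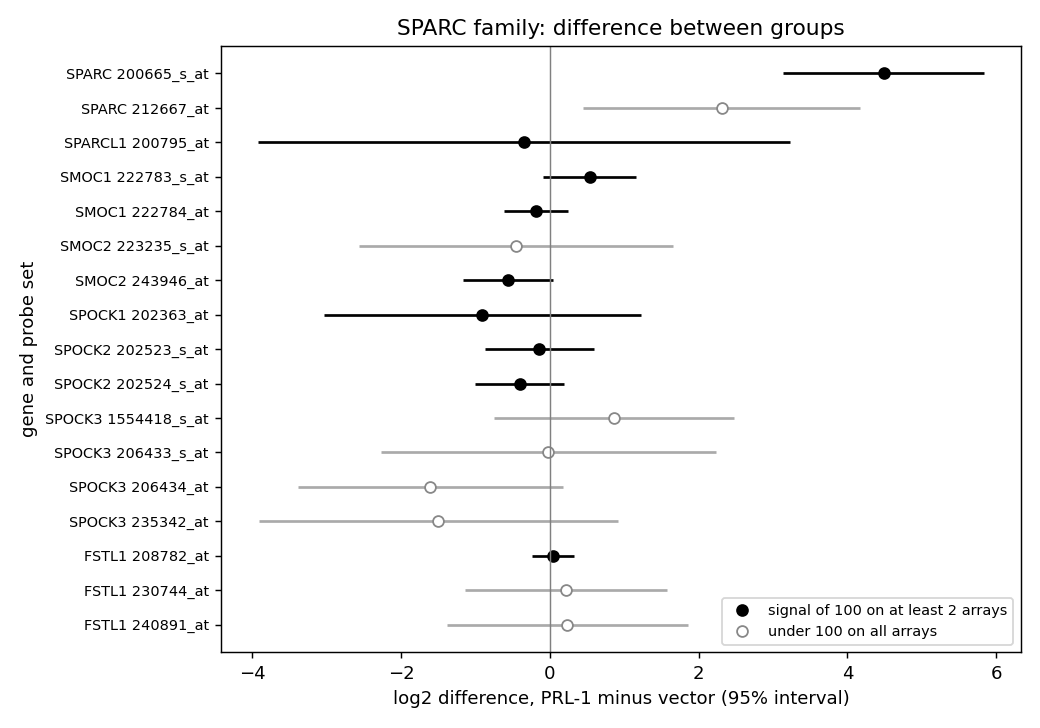
Log2 difference of the MAS5 signal, PRL-1 minus vector, with its 95% interval (line) for the 17 probe sets of the SPARC family, filled where 2 or more arrays reached a signal of 100 and open where it was under 100 on all arrays. SPARC 200665_s_at is at 4.49, which its choice as the basis of the family makes a description, and the other filled points lie between -0.91 and 0.54. Open points rest on signals under the background level, so their size cannot be read.

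In all, 9 of the 17 probe sets reached a signal of 100 on 2 or more arrays and entered the fit across 33818 probe sets, and they cover 7 of the 8 genes. The remaining 8 were under 100 on all arrays. SPARC passed this filter only through the arrays labelled PRL-1. Of the 9, 1 was called (SPARC, higher), where of all tested probe sets 0.192% were called, 0.0591% as higher and 0.133% as lower. These shares are given for reference only, since the same contrast chose the family. A call is a limma adjusted p (Benjamini-Hochberg) at or below 0.05. The SPARC call was lost on leaving out either array labelled PRL-1, as well as with no filter, with a filter at 200, with quantile-normalized signals and with no intensity trend. Groups did not overlap for 5 of the 17 probe sets, against 26.4% of all probe sets, a share close to that background, and these were both probe sets of SPARC and 1 dim probe set of SPOCK3 (1554418_s_at), higher, and SMOC2 243946_at and another dim probe set of SPOCK3 (206434_at), lower.

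The members also differed among arrays of a single group. PRL-1 replicate 1 was the lowest array for 5 of the 9 tested member probe sets, against 24.1% of all tested probe sets. The highest array was vector replicate 3 for 5 and PRL-1 replicate 2 for 4, against 38.5% and 17.9% of all tested probe sets. Over all probe sets the median signal was also lowest on PRL-1 replicate 1 (124.2) and highest on vector replicate 3 (165.9). For the tested probe sets of SPARCL1, SPOCK1, SPOCK2 and FSTL1, and for SMOC1 222784_at, the gap between PRL-1 replicates 1 and 2 was wider than the difference between the group means.

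The profiles most like that of SPARC were sought over the 5 arrays, as the smallest Euclidean distance on log2 signals with a floor of 100 and centred on their mean. Each gene was taken through its probe set nearest to SPARC, not its brightest, and its other probe sets are not given. The nearest were KIF1A, a motor of axonal transport (distance 0.36), SPINT2, an inhibitor of serine proteases (0.43), EEF1A2, a translation elongation factor (0.62), TIRAP, an adaptor of Toll-like receptors (0.74), and MGST1, a membrane-bound glutathione transferase (0.87). KIF1A gave 585 and 490 on the arrays labelled PRL-1, against 93.7, 76.9 and 102 on the vector arrays (limma adjusted p = 0.00804). SPINT2, EEF1A2 and TIRAP were also called, with log2 differences of 2.30, 2.15 and 2.16 (limma adjusted p = 0.000252, 3e-04 and 0.022). MGST1 shared with SPARC a vector level under background, at 367 and 361 on the arrays labelled PRL-1, against 13.8, 22.5 and 34.04 on the vector arrays, and was not called (limma adjusted p = 0.0871), although it was called with the log offset of 32 (0.0144), with the replicate block (0.0365), without vector replicate 1 (0.0408) and without vector replicate 3 (0.0142). Of the 4 calls, that of SPINT2 was kept under every alternative fit with limma, that of EEF1A2 was lost without the intensity trend (limma adjusted p = 0.0599), and that of KIF1A was lost without the trend (0.0627) and without either array labelled PRL-1 (0.357 and 0.182). TIRAP lost its call without the filter (limma adjusted p = 0.0598), without the trend (0.171), without either array labelled PRL-1 (0.429 and 0.403) and without vector replicate 2 (0.0639). With 5 arrays in 2 groups, a small distance says little more than that a gene was higher on both arrays labelled PRL-1 by a like amount. The 5 genes were thus picked on the contrast that the calls test, so their calls are a description and not independent evidence. MGST1 and KIF1A, like SPARC, passed the filter only through the arrays labelled PRL-1, since KIF1A reached 100 on a single vector array and MGST1 on none.

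Next, the genes beside SPARC on chromosome 5 were examined, by their order in the GRCh38.p14 gene table. Of the 10 protein-coding genes on each side, 16 were tested, and 0 were called by limma, while 2 of 16 (12.5%) had an unadjusted p under 0.05, beside 11.4% of all genes tested. The methods' t-test gave 1 before and 0 after Benjamini-Hochberg adjustment, beside 1449 of 14546 and 0 over all genes. FAT2, an atypical cadherin and the gene next to SPARC on one side, gave 77.2 and 115 on the arrays labelled PRL-1, against 178, 150 and 98.3 on the vector arrays. ATOX1, a copper chaperone and the gene next to it on the other side, gave 1693 and 2060 on the arrays labelled PRL-1, against 1546, 1597 and 1958 on the vector arrays. The log2 difference was -0.55 ± 0.41 (SE) for FAT2 (limma adjusted p = 0.709) and 0.14 ± 0.15 (SE) for ATOX1 (limma adjusted p = 0.793). Over the 16 neighbours it ranged from -0.69 to 0.29, with a median of -0.03 (-0.13 to 0.09 with single arrays left out), beside a median of -0.03 over all 14546 genes tested.

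**Figure D3:**
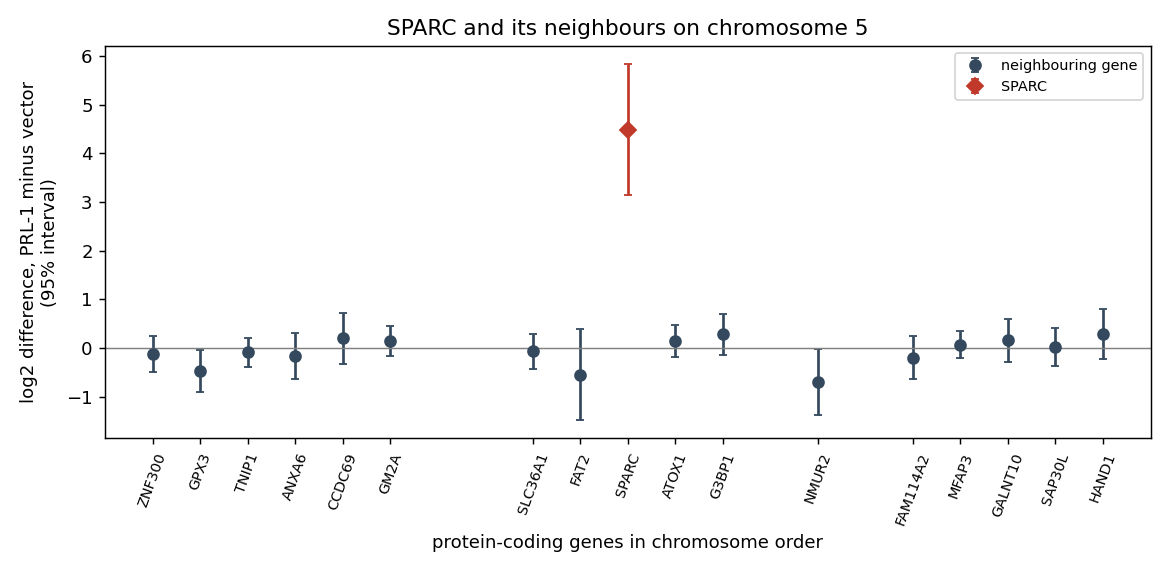
Log2 difference, PRL-1 minus vector, with its 95% interval for SPARC (diamond, probe set 200665_s_at) and for the 16 tested genes among its 10 protein-coding neighbours on each side (circles), in chromosome order. SPARC is at 4.49, and the neighbours range from -0.69 to 0.29.

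Genes that act with the SPARC family, or are related to it by a shared module or as matricellular proteins, were then described through 10 lists. These held 126 tested genes, each read through its brightest probe set. Of these, 0 were called higher and 0 lower by limma, where 0.0825% of all tested genes were called higher and 0.165% lower. At an unadjusted p under 0.05 there were 26 of 126 genes, or 20.6%, against 11.4% of all genes tested, and the methods' t-test gave 19 of 126 before and 0 after adjustment, beside 1449 of 14546 and 0 over all genes. The median log2 difference was -0.01, with 63 of 126 genes above 0, beside -0.03 over all genes, and the list median lay between -0.06 and 0.09 with single arrays left out. Without vector replicate 3 the call of 1 gene of the 126 was gained in each direction, ITGB5 and CCN2, where 103 of all 14546 genes were then called higher and 95 lower.

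Among ligands in the matrix, collagen chains (15 tested) had a median of -0.16 and basement membrane partners (10 tested) a median of 0.00. COL4A1, a chain of the collagen IV network to which SPARC binds, gave 2685 and 2424 on the arrays labelled PRL-1, against 2205, 2077 and 1813 on the vector arrays (log2 difference 0.33 ± 0.13, SE, limma adjusted p = 0.451). COL5A2, a chain of fibrillar collagen V, gave 146 and 131 on the arrays labelled PRL-1, against 284, 265 and 174 on the vector arrays (-0.77 ± 0.29, SE, limma adjusted p = 0.444). COL5A1 and COL4A6 gave -0.91 and -0.28 (limma adjusted p = 0.52 and 0.554). In the basement membrane list, the laminin chains LAMA1 and LAMA5 gave 0.44 and 0.31, and the nidogens, which link laminin to collagen IV, gave 0.29 for NID1 and -0.51 for NID2, with limma adjusted p from 0.417 to 0.509.

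Collagen folding and crosslinking genes (15 tested) had a median of -0.09. FKBP10, a chaperone of procollagen in the endoplasmic reticulum, had the largest difference in this list. It gave 598 and 516 on the arrays labelled PRL-1, against 112, 254 and 362 on the vector arrays. The groups did not overlap, but the vector arrays spread over more than a doubling, and the log2 difference of 1.35 ± 0.42 (SE) was not called (limma adjusted p = 0.358). P4HA1, a subunit of prolyl hydroxylase, gave -0.46, PLOD2, a lysyl hydroxylase, 0.31, and BMP1, a procollagen protease, -0.57 (limma adjusted p from 0.408 to 0.551).

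Receptors of SPARC and FSTL1 (9 tested) had a median of 0.07. ITGB5, an integrin beta chain that pairs with ITGAV, gave 811 and 790 on the arrays labelled PRL-1, against 465, 506 and 394 on the vector arrays. All arrays labelled PRL-1 lay above all vector arrays, and the log2 difference of 0.82 ± 0.16 (SE) was not called with all arrays (limma adjusted p = 0.157) but was called without vector replicate 3 (limma adjusted p = 0.0393). The 4 tested probe sets of ITGB5 ranged from 0.03 to 0.82, so the brightest, given here, had the largest difference. ITGAV gave 0.32 and ITGB1 -0.13 (limma adjusted p = 0.426 and 0.723). STAB1, the scavenger receptor that clears SPARC in macrophages, gave 96.3 and 237 on the arrays labelled PRL-1, against 193, 232 and 216 on the vector arrays.

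Adhesion kinases and their partners downstream of SPARC (12 tested) had a median of 0.13, with AKT1 at 0.32, MAPK3 at 0.43, CDC42 at 0.35 and RHOA at -0.24 (limma adjusted p from 0.453 to 0.521). Growth factors and receptors that SPARC binds or antagonises (12 tested) had a median of -0.05. PDGFB, a ligand that SPARC binds, gave 252 and 358 on the arrays labelled PRL-1, against 187, 174 and 214 on the vector arrays (log2 difference 0.65 ± 0.24, SE, limma adjusted p = 0.44). VEGFA gave 1489 and 1588 on the arrays labelled PRL-1, against 1615, 1637 and 3218 on the vector arrays, its difference of -0.41 resting on vector replicate 3, without which it was -0.08. FGF2 and FGFR1 gave 0.24 and -0.17.

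The BMP and activin pathway, on which SMOC1, SMOC2 and FSTL1 act, had a median of 0.09 over 19 tested genes. ID1, a target gene of BMP signalling, gave 1178 and 1208 on the arrays labelled PRL-1, against 901, 867 and 537 on the vector arrays (log2 difference 0.67 ± 0.22, SE, limma adjusted p = 0.384). NOG, which encodes the BMP antagonist noggin, gave 248 and 167 on the arrays labelled PRL-1, against 257, 349 and 402 on the vector arrays (-0.70 ± 0.27, SE, limma adjusted p = 0.452). SMAD4 gave -0.27 and the receptor BMPR2 0.40 (limma adjusted p = 0.454 and 0.502).

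Proteases and inhibitors that meet testicans or SPARC (13 tested) had a median of -0.01. MMP15, a membrane-type metalloprotease, gave 193 and 223 on the arrays labelled PRL-1, against 55.3, 89.2 and 146 on the vector arrays (log2 difference 1.21 ± 0.45, SE, limma adjusted p = 0.441), and 2 of its vector signals lay under 100. MMP2 gave -0.83, with PRL-1 replicate 1 at 86.8, and the inhibitors TIMP2 and TIMP3 gave 0.40 and 0.33 (limma adjusted p from 0.373 to 0.53).

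Other matricellular proteins (14 tested) had a median of 0.07 and the widest range of the lists. CCN2 (connective tissue growth factor) gave 133 and 101 on the arrays labelled PRL-1, against 426, 353 and 244 on the vector arrays. The groups did not overlap, and the log2 difference of -1.52 ± 0.29 (SE) was not called with all arrays (limma adjusted p = 0.152) but was called without vector replicate 3 (limma adjusted p = 0.0197). EFEMP1, a fibulin, gave 0.74, THBS3, a thrombospondin, -0.90, and TNC, tenascin C, 0.55 (limma adjusted p from 0.294 to 0.418). Relatives with a follistatin or Kazal module outside the family (7 tested) had a median of 0.17, with IGFBP7 at 0.95, AGRN at 0.34, HTRA1 at 0.23 and FSTL3 at -0.23 (limma adjusted p from 0.456 to 0.864).

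Several of these uncalled differences moved by over 1.5 times when 1 array was left out. Without vector replicate 3, ID1 was at 0.43, IGFBP7 at 0.57, NID2 at -0.33, BMPR2 at 0.24, BMP1 at -0.36, PLOD2 at 0.20, AGRN at 0.21, FGF2 at 0.12, HTRA1 at 0.41 and FSTL3 at -0.08. FKBP10 was at 0.87, MAPK3 at 0.27, CDC42 at 0.20 and HTRA1 at 0.06 without vector replicate 1. Without PRL-1 replicate 1, HTRA1 was at 0.05, and STAB1, at -0.50 with all arrays, was at 0.15. COL5A1 was at -0.31 when PRL-1 replicate 1 was left out and at -1.51 when replicate 2 of that group was, which also left NOG at -0.41 and PDGFB at 0.40. For some named genes another tested probe set had the other sign than the brightest. Such probe sets reached 0.62 for COL5A1, 0.17 for COL4A6, 0.13 for BMP1, 0.08 for FGFR1 and 0.03 for STAB1. In the other direction they reached -0.38 for AGRN, -0.23 for BMPR2, and -0.004 for PDGFB and CDC42.

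**Figure D4:**
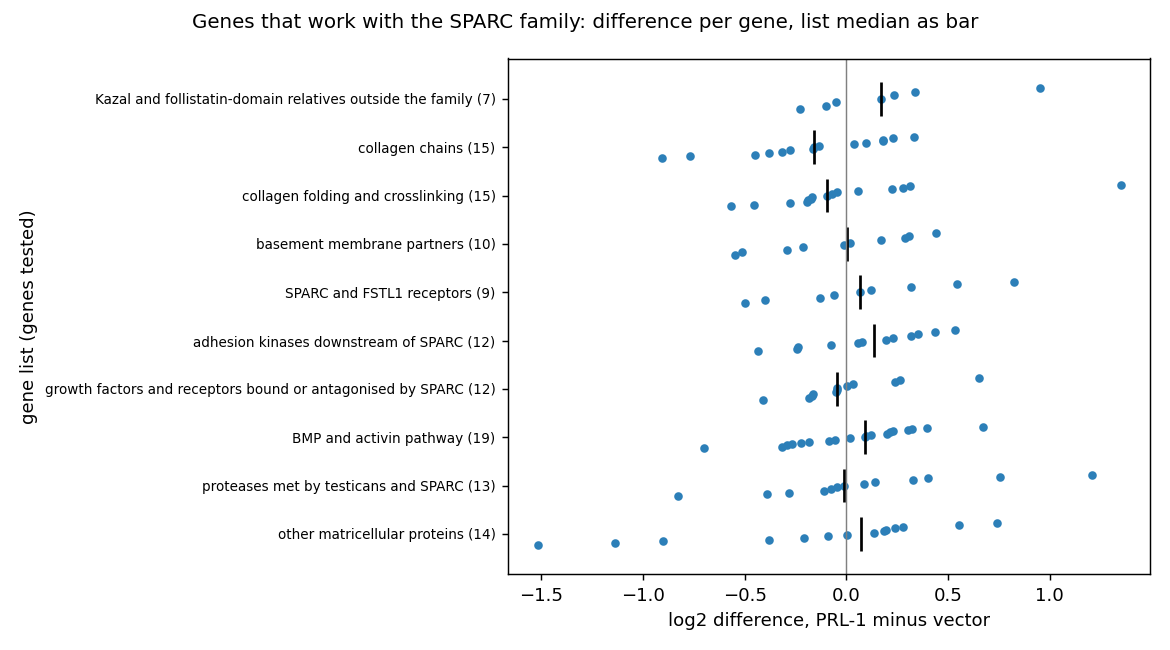
Log2 difference, PRL-1 minus vector, of each tested gene (dots) in 10 lists of genes that act with or are related to the SPARC family, with the median of each list as a bar and the number of genes in brackets. The medians lie between -0.16 and 0.17, and the genes farthest from 0 are CCN2 at -1.52 and FKBP10 at 1.35.

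SPARC is a product of fibroblasts and endothelial cells, so markers of these were read beside it, each through its brightest probe set. The summed signal of 11 fibroblast markers was 2229 and 2728 on the arrays labelled PRL-1 and 2429 to 3221 on the vector arrays. Of these, COL1A2, FAP and PDGFRB were under 100 on all arrays, while ACTA2, COL1A1, DCN and THY1 reached 100 on every array. Of the 6 tested, 0 were called by limma. The summed signal of 9 endothelial markers was 553 and 626 on the arrays labelled PRL-1 and 615 to 931 on the vector arrays. Of the 9, 7 were under 100 on all arrays, CDH5 and KDR among them, while PECAM1 reached 100 on every array. Of 6 haematopoietic markers on the array, PTPRC, CD14 and SPI1 were under 100 on all arrays, while CD3E and HBB reached 100 on every array. The sum of the 6 was 703 and 735 on the arrays labelled PRL-1 and 762 to 1135 on the vector arrays. Of the 7 DCN probe sets 1 was tested and of the 5 for PECAM1 2 were, against all 5 of COL1A1 and all 3 of THY1. The brightest probe set alone does not establish that a marker gene is expressed.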

How the data were processed

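RNA of HEK293 cells carrying pcDNA4-PRL-1 (2 arrays) or empty pcDNA4 vector (3 arrays) was measured on HG-U133 Plus 2.0 arrays. The deposited values are linear intensity values (MAS5 signal) for each probe set, which the authors computed with the defaults of the affy package. MAS5 subtracts a mismatch estimate, so dim probe sets vary widely on a log scale, and each array was scaled to a common mean. Presence calls, which the authors used as a filter, were not used here. Of 54675 probe sets, 62 control probe sets were left out, a single gene was annotated to 41091, several genes to 1801 and none, in the table used, to 11721. Gene symbols follow the GRCh38.p14 table, matched by gene identifier, and 33818 probe sets with a signal of at least 100 on at least 2 arrays were tested.

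Log2 signals were modelled in R 4.3.3 by lmFit and eBayes of limma 3.58.1 (two-sided, with a trend on intensity) with a single term for group, and p-values were adjusted over all tested probe sets. The fit was tested on simulated data. In the gene lists each gene was read from its tested probe set of highest average log2 signal, and up to 4 genes per list with the smallest adjusted p were named, with the 5 profiles nearest to SPARC and its nearest neighbours. The members and lists were chosen with earlier results of these data known. The number of arrays limits the precision. Alternatives were no filter, a filter at 200, a replicate block, median centring, an offset of 32 before the log, no trend, quantile normalization, each array left out in turn, other floors and the t-test of the methods.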

Additional observations from a re-analysis of the deposited data

How the results depend on the processing

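Of the 33818 probe sets, 65 were called with the settings used throughout. The count was 448 with the replicate block, 9 without the intensity trend and 11 to 313 with an array left out (11 and 15 without PRL-1 replicates 1 and 2, 43, 27 and 313 without vector replicates 1, 2 and 3). The t-test of the methods gave 2905 at an unadjusted 0.05 and 0 after Benjamini-Hochberg adjustment at 0.05 and at 0.1. It was run here on the 33818 probe sets of the signal filter, not on the smaller set that passed the presence filter of the methods, so its adjusted counts are not those of the methods' own procedure. The labels do not say that replicate numbers mark a shared batch, and the deviations of same-numbered arrays correlated at 0.06 for number 1 and -0.06 for number 2, so the block rests on no known pairing of the samples. Its log2 differences are those found without vector replicate 3. The fit still treats arrays of the same number as pairs, and its count of calls differs, at 448 against 313.

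The number of called member probe sets was 1, and 0 with quantile normalization, no trend, no filter or a filter at 200, and 0 to 1 with an array left out. The log2 difference of SPARC was 3.41 with the offset of 32 and 3.92 to 4.79 with an array left out. Its fold bound was at least 12.6-fold with a floor of 50 and at least 3.16-fold with a floor of 200. In the lists of genes that act with or are related to the family, 3 genes (ITGB5, FKBP10 and EFEMP1) were called higher and 1 (CCN2) lower with the replicate block, and 0 to 1 in each direction with an array left out. No called neighbour of SPARC appeared under any alternative run, and no called value changed its sign. Fits with a lone array labelled PRL-1 take its spread from the vector arrays. Signals under 100 limit SPARCL1, SPOCK1 and SPOCK3, which lie under the background level on some or all arrays.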
